A study of Mus musculus with 11 samples.

Results

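The CD300 genes encode cell-surface receptors with a single immunoglobulin-like domain, most of which are carried by myeloid cells. The 8 genes described here (Cd300a, Cd300c, Cd300c2, Cd300e, Cd300lb, Cd300ld, Cd300lf and Cd300lg) were chosen by their symbols from a table of 45777 genes, which holds 12 Cd300 genes in all. The family was chosen from these data with the responses to imiquimod known, and it was not recorded which values counted in the choice. The responses to imiquimod are therefore given for the 8 genes as values with errors and without p-values, counts of calls stand only beside the share of all genes called, and tests are given for the difference between the tissues of control mice and for genes outside the 8. The gene lists set beside the 8 were also chosen with earlier results of these data known. Their tests and counts are therefore descriptions. The same holds for the tests of the 8 genes between the control tissues, since control levels may have counted in the choice.

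CD300 receptors come in paired forms. CD300a and CD300f, the product of Cd300lf, carry inhibitory motifs (ITIMs) in their cytoplasmic tails, which recruit the phosphatases SHP-1 (Ptpn6) and SHIP-1 (Inpp5d). The receptors encoded by Cd300c2, Cd300ld, Cd300lb and Cd300e have short tails or charged membrane segments and signal through adaptors such as DAP12 (Tyrobp) and the Fc receptor gamma chain (Fcer1g). Several members recognize lipids that dying cells expose, such as phosphatidylserine, phosphatidylethanolamine and ceramide, and the family is known for setting the threshold at which macrophages, monocytes, neutrophils and mast cells respond. Cd300lg differs from the others in that its product, nepmucin, is a molecule of the vascular endothelium.

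RNA was sequenced from the skin and small intestine of BALB/c mice 8 to 10 weeks of age. Control mice received Vaseline and treated mice received 62.5 mg per day of a cream with 5% imiquimod (IMQ, Aldara), a ligand of TLR7 that causes psoriasis-like dermatitis. The sample annotation gives 5 to 8 days of cream on the back and the right ear, the methods give a shorter range on the back alone, and neither ties a duration, a sex or a pair of tissues to a mouse. There were 3 control libraries (replicates 1 to 3) and 3 IMQ libraries (4 to 6) of skin, and 3 control libraries (7 to 9) and 2 IMQ libraries (10 and 11) of small intestine. Nothing states that these libraries came from separate mice, so the p-values measure the spread between the samples, which may be technical.

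The libraries held 44995414 to 58526384 counts. Each tissue carried its own markers, with epidermal markers summing to between 5213 and 14048 FPKM in skin and intestinal epithelial markers to between 14173 and 22722 FPKM in small intestine (FPKM is the fragments per kilobase of transcript, scaled to sequencing depth). One library stood apart, since the intestinal epithelial markers summed to 269 FPKM in control skin replicate 2, against 30.0 and 34.0 FPKM in the other controls of skin. Results that rest on this library are given with and without it.

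In the mm10 assembly, 7 of the 8 genes lie in one cluster of 246.2 kb on chromosome 11, at chr11:114889152-115135372. Cd300a opens the cluster on the plus strand, and Cd300lb, Cd300c, Cd300ld, Cd300c2, Cd300e and Cd300lf follow on the minus strand. Cd300lg lies apart on the plus strand of the same chromosome, 12.8 Mb away at chr11:102041511-102055617. Cd300lf lies within Rab37, which is read from the opposite strand. The remaining Cd300 genes of the table, Cd300ld2, Cd300ld3, Cd300ld4 and Cd300ld5, lie between Cd300c2 and Cd300e. Of the 100-base windows of its exons, Cd300ld5 shared 100% with another gene, Cd300ld4 shared 86.7% and Cd300ld3 shared 80.9%, so that their counts are uncertain, and Cd300ld2 shared 16.2%. The 8 genes were distinct by the same measure, with at most 3.23% shared, in Cd300c2, and none shared in Cd300c, Cd300e, Cd300lb and Cd300lg.

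The promoters of the 5 clustered members that were higher after IMQ in both tissues without overlap are printed here, from 250 bases before the transcription start to 50 after it, 5′ to 3′ on the strand of the gene. They were picked by responses that were known when the family was chosen. The share of all genes without overlap in both tissues was not computed. A link between the elements and the responses was not tested. The sequences show where 4 of the 5 carry the core of the sites of PU.1, a transcription factor of the myeloid lineage, and that the promoter of Cd300e does not within this window. Cd300lb, which was higher without overlap in skin alone, is not printed, and its promoter held no such core either. The sequences are from RefSeq on GRCm38.p6 at chr11:114889791-114890090 (plus strand, Cd300a), chr11:114989837-114990136 (minus strand, Cd300ld), chr11:115001831-115002130 (minus strand, Cd300c2), chr11:115133943-115134242 (minus strand, Cd300lf) and chr11:115061990-115062289 (minus strand, Cd300e). Capitals mark GAGGAA or its reverse complement TTCCTC.
Cd300a: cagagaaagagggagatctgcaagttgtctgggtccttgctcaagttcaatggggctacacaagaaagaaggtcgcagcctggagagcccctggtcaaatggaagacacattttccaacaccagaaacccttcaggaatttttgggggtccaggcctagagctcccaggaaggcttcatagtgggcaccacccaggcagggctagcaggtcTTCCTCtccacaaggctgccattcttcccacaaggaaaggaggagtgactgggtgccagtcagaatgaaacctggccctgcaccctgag
Cd300ld: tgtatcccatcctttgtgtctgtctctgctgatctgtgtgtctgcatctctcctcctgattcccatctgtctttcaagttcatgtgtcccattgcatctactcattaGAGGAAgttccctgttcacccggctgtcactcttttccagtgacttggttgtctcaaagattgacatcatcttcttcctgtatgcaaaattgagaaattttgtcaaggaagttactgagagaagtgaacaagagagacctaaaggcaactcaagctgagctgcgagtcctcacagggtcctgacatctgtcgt
Cd300c2: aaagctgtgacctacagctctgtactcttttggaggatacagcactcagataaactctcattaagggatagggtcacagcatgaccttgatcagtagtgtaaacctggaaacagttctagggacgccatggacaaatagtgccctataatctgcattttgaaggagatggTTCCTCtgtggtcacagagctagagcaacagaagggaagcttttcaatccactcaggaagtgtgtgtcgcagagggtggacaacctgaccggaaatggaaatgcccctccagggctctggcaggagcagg
Cd300lf: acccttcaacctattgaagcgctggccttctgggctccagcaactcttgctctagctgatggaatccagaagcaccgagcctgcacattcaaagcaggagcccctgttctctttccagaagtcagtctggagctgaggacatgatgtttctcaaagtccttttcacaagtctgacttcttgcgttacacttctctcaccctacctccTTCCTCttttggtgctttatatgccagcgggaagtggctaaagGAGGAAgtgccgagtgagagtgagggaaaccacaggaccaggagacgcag
Cd300e: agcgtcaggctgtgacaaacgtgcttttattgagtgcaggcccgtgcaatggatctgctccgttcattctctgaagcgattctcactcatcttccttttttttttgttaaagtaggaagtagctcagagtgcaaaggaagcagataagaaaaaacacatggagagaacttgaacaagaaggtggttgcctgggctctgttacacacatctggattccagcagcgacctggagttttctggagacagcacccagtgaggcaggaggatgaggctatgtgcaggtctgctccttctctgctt

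Of the 7 members with a promoter in the reference, 4 held GAGGAA on either strand, against 28.3% of 32851 promoters of the same length. The match began at position -39 from the start of Cd300a, -143 of Cd300ld and -80 of Cd300c2, and Cd300lf held 2 such matches. The element GAAANNGAA, a core of interferon-stimulated response elements, was in 3 of the 7 promoters (Cd300c, Cd300c2 and Cd300lf) against 8.56% of all promoters. TTGCNNAA, a core of C/EBP sites, was in 1 of the 7 (Cd300a) against 10.8%. Both strands were searched and matches of different elements could overlap. The promoters of Cd300lb and Cd300e held none of the 3 elements within the window. These are matches of letters and not bound sites. A single annotated start was used for each gene, and for Cd300a, Cd300c2, Cd300lf and Cd300e it lies inside the bounds of the gene. Other starts were not searched.

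In the skin of control mice, the endothelial member led the 8 genes and the adaptor-coupled member Cd300e was close to absent. Outside the 8, Cd300ld3, Cd300ld4 and Cd300ld5 had higher means there, at 16.0, 9.57 and 12.7 FPKM, from counts that are uncertain. Mean levels were 6.54 ± 0.997 FPKM for Cd300lg, 4.42 ± 0.560 for Cd300c2, 2.82 ± 0.740 for Cd300a and 1.33 ± 0.287 for Cd300lb (SD, n = 3), and none of these neighbours in the order overlapped. Below them, Cd300ld at 0.492 FPKM and Cd300lf at 0.409 FPKM overlapped, and so did Cd300lf with Cd300e and Cd300e with Cd300c. Cd300lg alone held 40.5% ± 4.43 (SD, n = 3) of the summed FPKM of the 8 genes.

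Cd300e was listed at 0 in control skin replicates 1 and 3, and its only counts in the controls of skin, 32, were in replicate 2, the library with intestinal transcripts. Cd300c had 0 to 6 counts in each of the 11 libraries and no more than 0.123 FPKM, which is too little for a comparison at this depth.

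**Figure D1:**
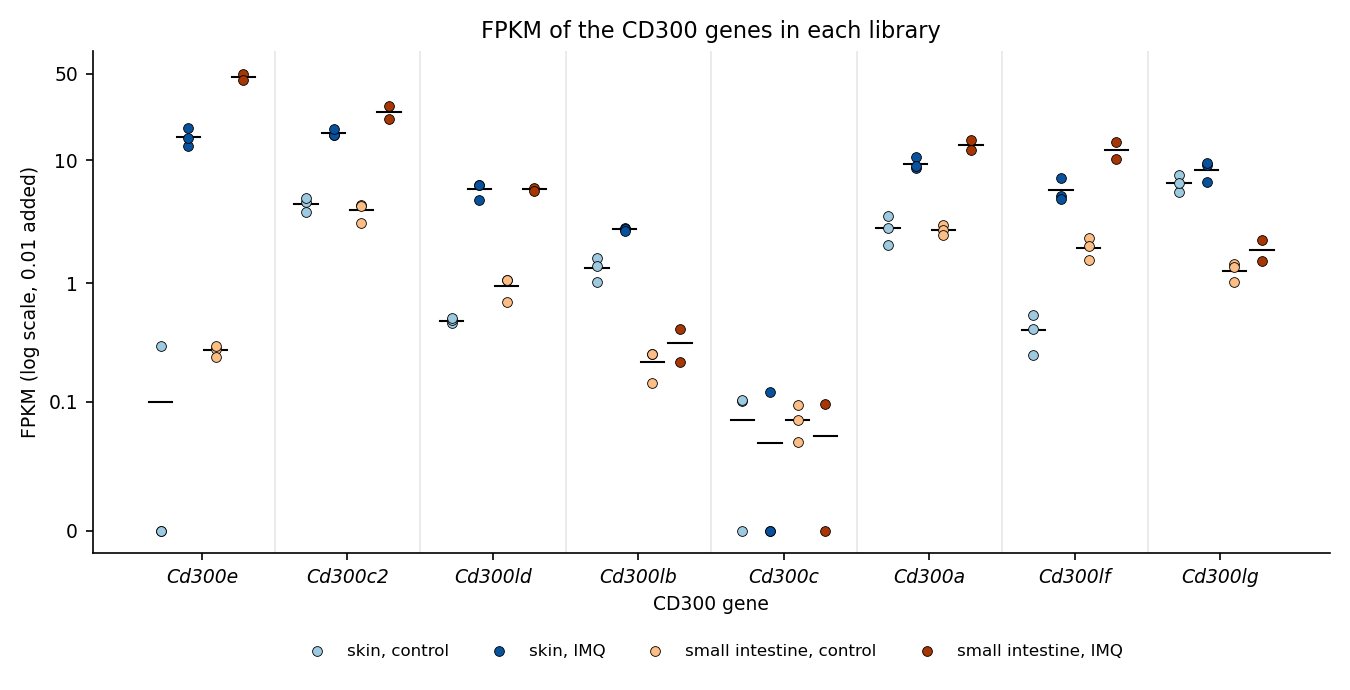
FPKM of each of the 8 CD300 genes (x axis) in each of the 11 libraries (points, coloured by tissue and treatment) on a log axis to which 0.01 was added, with the group means as black lines. The IMQ libraries sit above the controls of their tissue for Cd300e, Cd300c2, Cd300ld, Cd300a and Cd300lf in both tissues, and Cd300lb and Cd300lg are lower in small intestine than in skin.

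In the small intestine of control mice the order was different, with Cd300c2 at 3.91 ± 0.683 FPKM, Cd300a at 2.73 ± 0.269 and Cd300lf at 1.95 ± 0.393 above Cd300lg at 1.26 ± 0.214 (SD, n = 3). Cd300lg overlapped with Cd300ld at 0.945 FPKM, and Cd300e at 0.278 FPKM overlapped with Cd300lb at 0.222 FPKM.

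Compared between the tissues of control mice, the inhibitory member Cd300lf was lower in skin than in small intestine, and so was Cd300ld, whereas Cd300lg and Cd300lb were higher in skin. Counts were normalized by relative log expression over the 6 control libraries. Cd300lf had a mean normalized count of 55.6 ± 13.3 in skin and 278 ± 11.1 in small intestine (SD, n = 3), a log2 difference of -2.31 (SE 0.26, adjusted p = 0.000215, edgeR quasi-likelihood test). Cd300ld had 59.8 ± 5.20 in skin and 155 ± 30.2 in small intestine (SD, n = 3), a log2 difference of -1.37 (SE 0.25, adjusted p = 0.00268 in edgeR). The groups of both genes did not overlap.

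Cd300lg, the endothelial member, had 813 ± 178 in skin and 209 ± 24.2 in small intestine (SD, n = 3), a log2 difference of 1.96 (SE 0.22, adjusted p = 0.000209 in edgeR). Cd300lb, which couples to DAP12, had 182 ± 44.5 in skin and 44.0 ± 14.8 in small intestine (SD, n = 3), a log2 difference of 2.05 (SE 0.35, adjusted p = 0.00185 in edgeR). The endothelial markers, fixed as a list of 10 genes, were higher in skin for 4 and lower for 0, and their part in the difference of Cd300lg was not tested.

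The paired receptors Cd300a and Cd300c2 overlapped between the tissues. Their log2 differences were -0.39 (SE 0.26, adjusted p = 0.246 in edgeR) and -0.28 (SE 0.25, adjusted p = 0.390 in edgeR). Without control skin replicate 2 the log2 difference of Cd300a was -0.65 with an adjusted p of 0.0444 in edgeR. On the FPKM scale, where the median of all genes was 0.45 higher in skin on the log2 scale, both were slightly higher in skin, by 0.02 and 0.19 on the log2(FPKM + 0.01) scale, without passing the test in limma. Of the 6 members tested, 2 were higher in skin, 2 were lower and 2 did not pass, among 18890 genes of which 51.9% passed in either direction. The share of the members is to be read against that background, and it was not recorded whether levels in control tissues played a part in the choice of the family.

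In bulk tissue, more cells of a type and more RNA per cell cannot be told apart, and this holds for all values that follow. Unless stated, normalized counts are given within a tissue, scaled to the mean library of that tissue.

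In treated skin, Cd300e went from near absence to one of the leading members. Its normalized counts were 0, 34.9 and 0 in the controls and 2283, 1561 and 1775 after IMQ. The lowest IMQ library was above every control by a wide margin. The ratio of the means was 161, and against the floor of 3 counts per library in the 2 controls at 0 the mean of the IMQ libraries was at least 703-fold higher. Because the fit of skin kept genes with a count in every library, Cd300e had no fold change in it. With no filter on low counts the fitted log2 fold change was 7.44, which depends on the prior count.

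The adaptor-coupled member Cd300ld had normalized counts of 59.7, 68.7 and 65.4 in control skin and 885, 641 and 822 after IMQ. Its log2 fold change was 3.60 (SE 0.20), from controls that varied little. Cd300lf, the inhibitory member that also serves as the entry receptor of murine norovirus, had 69.7, 42.5 and 68.9 in control skin and 694, 1014 and 664 after IMQ. Its log2 fold change was 3.70 (SE 0.29), the highest of the members fitted in skin.

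Cd300c2 had 271, 308 and 222 in control skin and 1024, 981 and 1065 after IMQ, with a log2 fold change of 1.94 (SE 0.16). Cd300a, the other inhibitory member, had 289, 391 and 219 in control skin and 1192, 920 and 938 after IMQ, with a log2 fold change of 1.76 (SE 0.24). Neither gene overlapped between the groups. Cd300lb had 229, 218 and 144 in control skin and 445, 427 and 396 after IMQ, again without overlap and with a log2 fold change of 1.10 (SE 0.22).

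Cd300lg was the member whose groups overlapped in skin. It had 728, 1068 and 834 in the controls and 1292, 906 and 1265 after IMQ, and its log2 fold change was 0.40 (SE 0.20). Of the 6 members fitted in skin, 5 were called higher and 1 was not, beside 4.05% of 20512 genes called higher and 6.74% called in either direction. Without control replicate 1 or without IMQ replicate 5, 3 were called, and Cd300a and Cd300lb were not among them. Since the family was chosen with this contrast known, nothing is read from these counts.

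Treated small intestine was marked by Cd300e as well. Its normalized counts were 36.9, 36.3 and 30.5 in the controls and 6310 and 6056 after IMQ. The log2 fold change was 7.48 (SE 0.15), and by this value Cd300e was number 1 of the 19965 genes fitted in small intestine. The family was chosen with this contrast known, and genes that lacked a count in any of these libraries were not ranked. Clec4e, which had no counts in the controls, had a log2 fold change of 8.34 in the 2 alternatives that fitted it. The next gene outside the family, the carbonic anhydrase Car3, had a log2 fold change of 6.39. These counts put Cd300e at 47.5 FPKM in treated small intestine, the highest level of any member in any group.

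**Figure D2:**
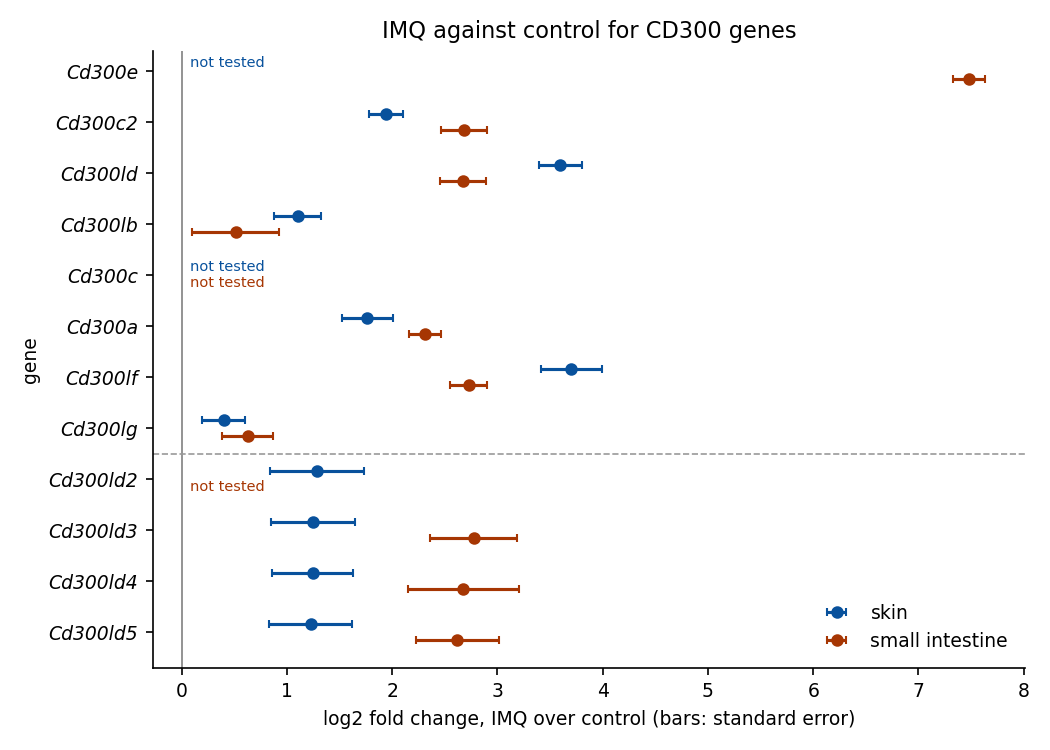
Log2 fold change of IMQ over control (x axis, bars show the standard error) for the 8 CD300 genes and, under the dashed line, the genes Cd300ld2 to Cd300ld5, in skin and in small intestine. Cd300e in small intestine lies at 7.48, the remaining members lie between 0.40 and 3.70, and genes left out of a fit for a library without counts are marked as not tested.

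Cd300lf had 246, 240 and 227 in control small intestine and 1811 and 1333 after IMQ, with a log2 fold change of 2.72 (SE 0.18). Cd300c2 had 289, 192 and 292 in the controls and 1795 and 1516 after IMQ, with a log2 fold change of 2.68 (SE 0.22). Cd300ld had 153, 142 and 103 in the controls and 835 and 857 after IMQ, with a log2 fold change of 2.67 (SE 0.22). These 3 members, which differed in their control levels, had nearly the same fold change in small intestine.

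Cd300a had 343, 306 and 288 in control small intestine and 1634 and 1466 after IMQ, with a log2 fold change of 2.31 (SE 0.15). Cd300lb, at 44.5, 23.2 and 45.3 in the controls and 67.2 and 39.9 after IMQ, overlapped between the groups and had a log2 fold change of 0.51 (SE 0.41). Cd300lg had 201, 175 and 160 in the controls and 316 and 235 after IMQ, which did not overlap, and its log2 fold change was 0.63 (SE 0.24). Of the 7 members fitted in small intestine, 5 were called higher and 2 were not, beside 2.77% of 19965 genes called higher and 2.95% called in either direction, and again nothing is read from the count.

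Set side by side, the fold changes of the members took different orders in the tissues. The difference of the log2 fold changes, small intestine minus skin, was -0.98 (SE 0.33) for Cd300lf, -0.92 (SE 0.29) for Cd300ld and -0.58 (SE 0.46) for Cd300lb, which had the larger fold in skin. It was 0.75 (SE 0.28) for Cd300c2, 0.56 (SE 0.31) for Cd300a and 0.24 (SE 0.31) for Cd300lg. Of these 6 members, 0 were called for the interaction in edgeR, beside 2.55% of 18108 genes. An unadjusted p under 0.05 in edgeR was found for 3 members, beside 3068 of the 18108 genes. In DESeq2, 1 member, Cd300ld, was called, beside 7.07% of all genes. The family was chosen with both responses known, so nothing is read from these counts.

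After IMQ, Cd300ld had nearly the same FPKM in both tissues, whereas Cd300lf had a higher FPKM in small intestine without overlap, as in the controls. Cd300ld reached 5.80 ± 0.892 FPKM (SD, n = 3) in skin and 5.82 ± 0.214 FPKM (SD, n = 2) in small intestine. Cd300lf reached 5.69 ± 1.29 FPKM (SD, n = 3) in skin and 12.2 ± 2.82 FPKM (SD, n = 2) in small intestine. In counts normalized over all 11 libraries, both genes were higher in treated small intestine than in treated skin without overlap. Cd300ld had 702 ± 113 in skin (SD, n = 3) and 962 ± 31.2 in small intestine (SD, n = 2). Cd300lf had 709 ± 175 in skin (SD, n = 3) and 1785 ± 359 in small intestine (SD, n = 2). The near equality of Cd300ld therefore depends on the scale. Cd300lb stayed lower in small intestine, at 0.322 FPKM against 2.74 FPKM in skin.

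The order within treated skin was Cd300c2 at 16.5 FPKM and Cd300e at 15.5 FPKM, which overlapped, then Cd300a at 9.39 FPKM and Cd300lg at 8.40 FPKM, which overlapped, then Cd300ld and Cd300lf, which overlapped, and Cd300lb. In treated small intestine it was Cd300e at 47.5 FPKM, Cd300c2 at 24.7 FPKM, Cd300a at 13.3 FPKM and Cd300lf at 12.2 FPKM, followed by Cd300ld, Cd300lg at 1.88 FPKM and Cd300lb. There Cd300a and Cd300lf overlapped, and the other neighbours did not.

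**Figure D3:**
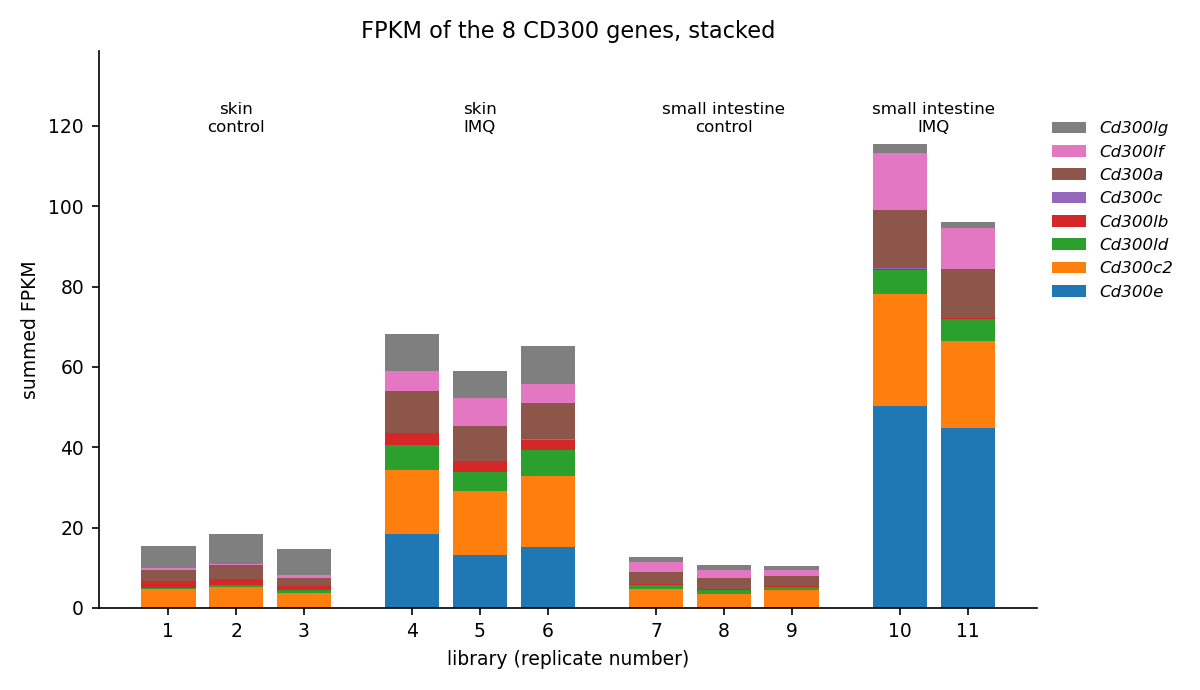
FPKM of the 8 CD300 genes stacked for each library (x axis, replicate numbers in 4 groups), with the y axis starting at 0. The sums lie between 10.5 and 18.5 FPKM in the 6 control libraries and reach 116 FPKM in the 5 IMQ libraries, and Cd300e forms the largest segment in treated small intestine.

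The 8 genes together had 16.2 ± 2.05 FPKM in control skin and 64.1 ± 4.71 in treated skin (SD, n = 3). In small intestine the sum was 11.4 ± 1.23 FPKM in the controls (SD, n = 3) and 106 ± 13.8 after IMQ (SD, n = 2). Cd300e held 24.1% ± 2.45 (SD, n = 3) of the sum in treated skin and 45.1% ± 2.15 (SD, n = 2) in treated small intestine. The share of Cd300lg was 40.5% in control skin and between 11.2% and 14.6% in treated skin, and 11.1% and 1.76% in control and treated small intestine, while its own level was not lower after IMQ.

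Grouped by signalling, the adaptor-coupled members (Cd300c2, Cd300ld, Cd300lb and Cd300e) summed to 1.98 ± 0.105 times the FPKM of the inhibitory members (Cd300a and Cd300lf) in control skin and to 2.71 ± 0.364 times in treated skin (SD, n = 3). In small intestine the ratio was 1.16 ± 0.199 in the controls (SD, n = 3) and 3.09 ± 0.225 after IMQ (SD, n = 2). Without Cd300e the ratio was 1.95 and 1.67 in control and treated skin, and 1.10 and 1.21 in control and treated small intestine. With this gene left out, the ranges of control and treated libraries overlapped in both tissues.

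Cd300ld2, Cd300ld3, Cd300ld4 and Cd300ld5, which are not among the 8 genes, were tested. In control skin they summed to between 23.7 and 64.0 FPKM and in control small intestine to between 0.377 and 1.16 FPKM. Cd300ld3, Cd300ld4 and Cd300ld5 were higher in control skin, with log2 differences of 5.00 (SE 0.53), 4.97 (SE 0.59) and 4.97 (SE 0.51) and adjusted p of 0.000155, 0.000279 and 0.000141 in edgeR. Cd300ld, their neighbour in name and place, went the other way between the tissues.

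After IMQ, Cd300ld3, Cd300ld4 and Cd300ld5 passed the test in small intestine and not in skin, a contrast between tissues that was not itself past the test. In small intestine, Cd300ld3 rose with a log2 fold change of 2.77 (SE 0.41, adjusted p = 0.0134 in edgeR), Cd300ld5 with 2.62 (SE 0.39, adjusted p = 0.0144 in edgeR) and Cd300ld4 with 2.68 (SE 0.52, adjusted p = 0.0450 in edgeR), from means below 20 normalized counts. Of the 3, 0 were called without IMQ replicate 10 or without replicate 11, 1 without control replicate 9 and 2 without control replicate 8. In skin the log2 fold changes were 1.23 to 1.29 with adjusted p of 0.109 to 0.146 in edgeR, where 0 of 4 were called, 4 had an unadjusted p under 0.05 and 4 were called in DESeq2. Over all genes of skin, 4753 of 20512 had an unadjusted p under 0.05 in edgeR, and DESeq2 called 14.8%. The interaction of Cd300ld3 was 1.53 (SE 0.62, adjusted p = 0.239 in edgeR). As Cd300ld3, Cd300ld4 and Cd300ld5 share most of their sequence, their values are not independent of each other.

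**Figure D4:**
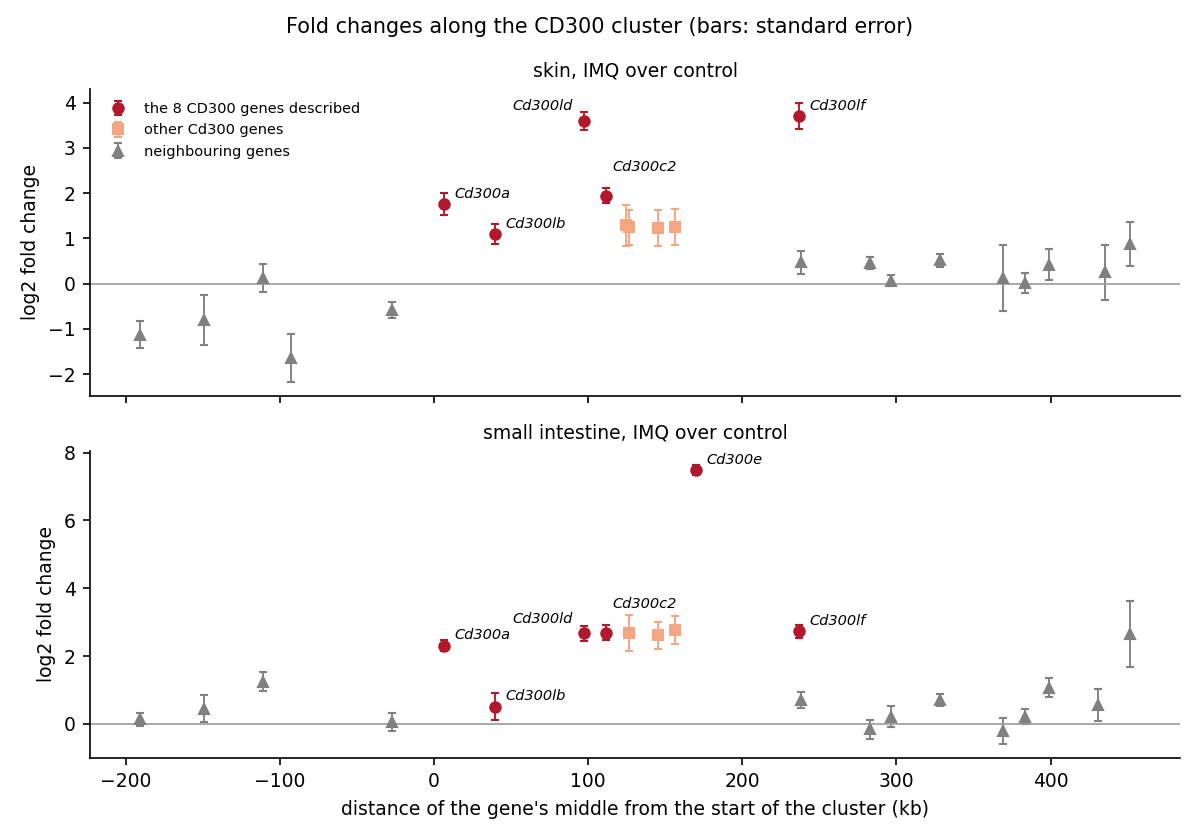
Log2 fold change of IMQ over control (y axis, bars show the standard error) against the distance in kb from the start of the CD300 cluster (x axis) for the fitted genes within 200 kb of it, with skin above and small intestine below. Of the neighbours that are no Cd300 gene, 0 of 14 in skin and 0 of 13 in small intestine passed the test in edgeR, beside 6.74% and 2.95% of all genes.

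The other neighbours of the cluster were tested in the same fits. Of 17 genes within 200 kb that are no Cd300 gene, 14 were tested in skin and 13 in small intestine. The medians of their log2 fold changes were 0.13 and 0.45, against -0.01 and -0.02 over all genes. In edgeR 0 were called in either tissue, beside 6.74% and 2.95% of all genes in skin and small intestine. An unadjusted p under 0.05 was found for 5 and 5, beside 4753 of 20512 and 2452 of 19965 genes. DESeq2 called 4 and 3, beside 14.8% and 6.04% of all genes. Rab37, a small GTPase whose gene surrounds Cd300lf, had 138 ± 14.7 normalized counts in control skin and 191 ± 44.5 after IMQ (SD, n = 3), a log2 fold change of 0.47 (SE 0.25, adjusted p = 0.314 in edgeR). In small intestine Rab37 had a log2 fold change of 0.70 (SE 0.23, adjusted p = 0.243 in edgeR). The handling of strand in the counting is not given in the sources used here, so reads of Rab37 and Cd300lf may have been exchanged.

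Across the 11 libraries, the expression pattern of each member with a count in all of them was set beside that of 15032 genes with a mean count of at least 50, by the root mean square (RMS) difference of centred log2 values. The nearest genes to Cd300a were Igsf6 (RMS 0.20) and Milr1 (0.27), and those to Cd300c2 were Hcls1 (0.19) and Igsf6 (0.20). Cd300a and Cd300c2 differed from each other by an RMS of 0.24, the smallest value between members. Cd300ld was nearest to Lst1 (0.35) and Sirpb1a (0.38), and Cd300lf to Gm5150 (0.55) and Pilra (0.58). Cd300lb was nearest to Ptges (0.32) and Cd44 (0.33), and Cd300lg to Agtr1a (0.19). All these libraries enter each value, so that the differences between tissues and treatments dominate it.

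The genes through which CD300 receptors signal were also higher after IMQ. Of 13 adaptors and kinases, 8 rose and 0 fell in skin, and the median log2 fold change was 1.30 against -0.01 over all genes. In small intestine 11 of 13 rose and 0 fell, with a median of 1.82 against -0.02 over all genes. Fewer passed without some libraries, with 4 of 13 in skin without control replicate 1 and 7 of 13 in small intestine without IMQ replicate 10. Fcer1g, the Fc receptor gamma chain, led the list in both tissues. Its normalized counts rose from 1037 ± 56.7 to 4045 ± 814 in skin (SD, n = 3), a log2 fold change of 1.96 (SE 0.16, adjusted p = 0.00262 in edgeR), and from 495 ± 129 (SD, n = 3) to 5476 ± 550 (SD, n = 2) in small intestine, a log2 fold change of 3.47 (SE 0.22, adjusted p = 0.000379 in edgeR).

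Tyrobp, which encodes the adaptor DAP12, rose with log2 fold changes of 1.53 (SE 0.15, adjusted p = 0.00432 in edgeR) in skin and 2.0 (SE 0.21, adjusted p = 0.00253 in edgeR) in small intestine. Hcst, the related adaptor DAP10, had 1.07 (SE 0.39, adjusted p = 0.163 in edgeR) and 0.42 (SE 0.34, adjusted p = 0.723 in edgeR) and did not pass in either tissue. The smallest rises among the called genes were those of the kinase gene Pik3cd in skin, 1.17 (SE 0.19, adjusted p = 0.0191 in edgeR), and of Plcg2 in small intestine, 1.03 (SE 0.17, adjusted p = 0.0209 in edgeR).

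Of 7 phosphatases and other inhibitory effectors, 3 rose in skin and 5 in small intestine, and 0 fell in either tissue, with medians of 0.69 and 1.19. In skin 1 was called without control replicate 1 or without any one IMQ library, and in small intestine 2 were called without IMQ replicate 11 and 3 without control replicate 8, control replicate 9 or IMQ replicate 10. Ptpn6, the phosphatase SHP-1, rose by a log2 fold change of 1.18 (SE 0.21, adjusted p = 0.0258 in edgeR) in skin and 1.86 (SE 0.18, adjusted p = 0.00159 in edgeR) in small intestine. Inpp5d, the inositol phosphatase SHIP-1, had 1.21 (SE 0.25, adjusted p = 0.0381 in edgeR) and 1.47 (SE 0.18, adjusted p = 0.00524 in edgeR). Dok3, an adaptor of inhibitory signalling, had the highest fold change of the list in both tissues, 1.86 (SE 0.12, adjusted p = 0.00167 in edgeR) and 1.99 (SE 0.21, adjusted p = 0.00253 in edgeR). Dok1 passed in small intestine at 1.06 (SE 0.19, adjusted p = 0.0307 in edgeR).

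Few of the other receptors for exposed lipids and apoptotic cells passed the test. Of 14 tested in skin, 3 rose and 0 fell, and the median log2 fold change was 0.08. Of 12 tested in small intestine 0 rose and 1 fell, with a median of 0.20. Olr1 and Trem2 each lacked a count in a control library and were not in this fit. In the 3 alternatives that fitted Olr1 in small intestine it was called in 3, with log2 fold changes of 3.82 to 4.43, and Trem2 was called in 0 of 2. In skin 0 were called without control replicate 3 or without any one IMQ library, and 1 without control replicate 1. The scavenger receptor gene Stab1 had 1.38 (SE 0.26, adjusted p = 0.0306 in edgeR) and Msr1 had 1.04 (SE 0.22, adjusted p = 0.0423 in edgeR) in skin. The gene that fell was Timd4, which encodes the phosphatidylserine receptor TIM-4 of resident macrophages. In small intestine it had 259 ± 69.3 in the controls (SD, n = 3) and 23.2 ± 17.2 after IMQ (SD, n = 2), a log2 fold change of -3.44 (SE 0.52, adjusted p = 0.0142 in edgeR), and had -0.03 (SE 0.55, adjusted p = 0.983 in edgeR) in skin. Havcr1, which encodes TIM-1, had -0.01 (SE 0.46) and -0.73 (SE 0.49) and did not pass.

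**Figure D5:**
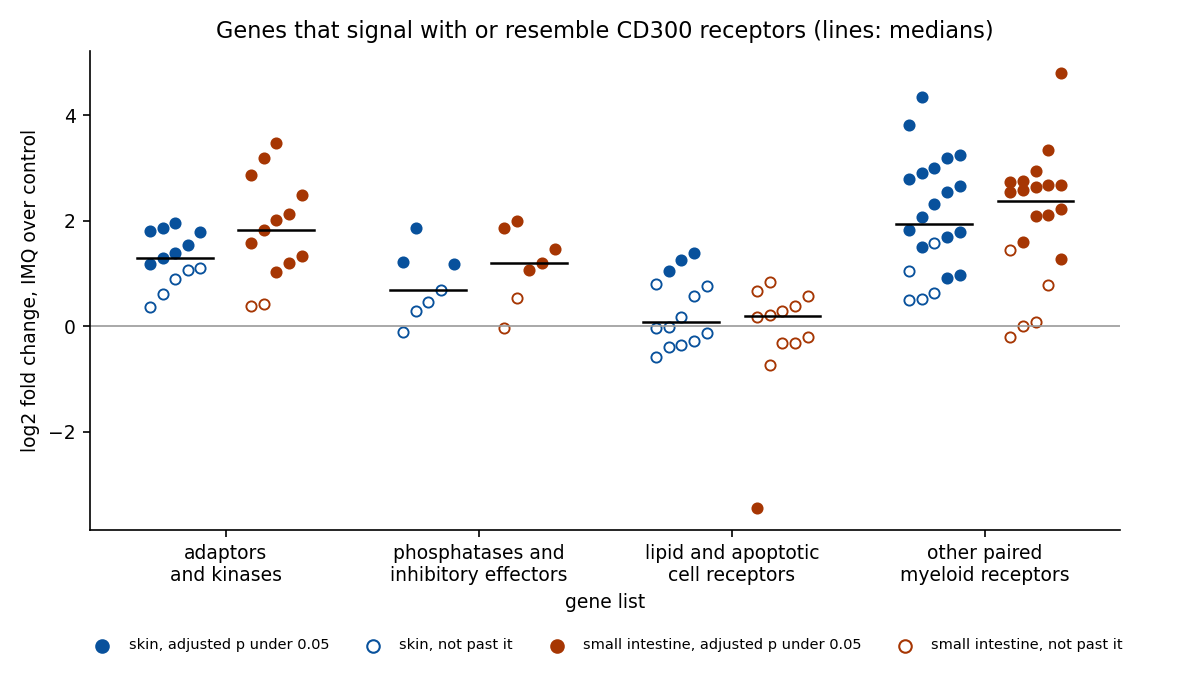
Log2 fold change of IMQ over control (y axis) for the genes of 4 lists (x axis) in skin and small intestine, with filled points for genes at an adjusted p under 0.05, open points for the others and black lines for the medians. The medians lie at 1.30 and 1.82 for adaptors and kinases, 0.08 and 0.20 for lipid receptors and 1.94 and 2.38 for other paired receptors, and the point at -3.44 is Timd4 in small intestine.

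Most genes of other families that pair activating with inhibitory receptors on myeloid cells were higher after IMQ. Of 22 such genes tested in skin, 17 rose and 0 fell, and the median log2 fold change was 1.94. In small intestine 15 of 20 rose and 0 fell, with a median of 2.38. Without IMQ replicate 5, 11 passed in skin, and without IMQ replicate 10, 9 passed in small intestine. Siglece, an inhibitory receptor for sialic acids, led in both tissues. In skin its mean normalized count was 122 ± 31.4 in the controls and 2471 ± 299 after IMQ (SD, n = 3), a log2 fold change of 4.34 (SE 0.22, adjusted p = 0.000549 in edgeR). In small intestine it rose from 219 ± 35.0 (SD, n = 3) to 6123 ± 371 (SD, n = 2), a log2 fold change of 4.81 (SE 0.17, adjusted p = 8.12e-05 in edgeR).

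The smallest called rises of this list were those of Sirpa, the receptor for CD47, in skin at 0.90 (SE 0.12, adjusted p = 0.0101 in edgeR) and of Pilrb2 in small intestine at 1.28 (SE 0.24, adjusted p = 0.0363 in edgeR). Trem1, an amplifier of neutrophil and monocyte responses that signals through DAP12, lacked a count in a library of skin and was not in the fit of skin. In the 3 alternatives that fitted Trem1 in skin it was called in 3, with log2 fold changes of 3.98 to 4.59. In small intestine Trem1 had a log2 fold change of -0.20 (SE 0.57, adjusted p = 0.942 in edgeR). All these counts stand beside the 4.05% of genes called higher in skin and 2.77% in small intestine, and the lists were chosen with earlier results of these data known.

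Macrophage markers were higher after IMQ in both tissues. In skin, 6 of 10 macrophage markers rose and their sum went from 284 to 424 FPKM in the controls to 739 to 932 FPKM after IMQ, with 3 called without IMQ replicate 5. In small intestine, 6 of 10 rose and the sum went from 154 to 222 FPKM to 765 to 848 FPKM. Of the monocyte markers, 3 of 9 rose in skin and 1 of 8 in small intestine, with sums of 98.0 to 115 and 138 to 196 FPKM in control and treated skin and 1425 to 1616 and 1502 to 1521 FPKM in control and treated small intestine. In small intestine these sums overlapped. Plac8 and Ace of this list were lower in control skin than in control small intestine, with log2 differences of -6.94 to -6.26 and -5.58 to -4.93 over the settings. Whether the sums follow monocytes in small intestine was not tested. Of the monocyte markers, 1 was called in skin without control replicate 1 or IMQ replicate 6, 2 without control replicate 3, IMQ replicate 4 or IMQ replicate 5, and 0 in small intestine without IMQ replicate 10 or replicate 11. The part of either list in the CD300 values was not tested.

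Neutrophil markers were also higher after IMQ in skin, and only in part in small intestine. In skin 7 of 7 rose and the sum went from 14.0 to 15.4 FPKM in the controls to 7044 to 8597 FPKM after IMQ, whereas in small intestine 2 of 5 rose (1 in DESeq2, in voom and without any one library) and the sum went from 7.17 to 8.13 FPKM to 14.9 to 15.5 FPKM, where Stfa2l1 was at 0 in all 5 libraries. Of these markers in small intestine, Csf3r was called in 14 of 14 settings and Mmp8 in 2 of 14. Cxcr2, Retnlg and S100a9 were called in 0 of 14. The part of the neutrophil markers in the CD300 values was not tested.

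Of the other lists, mast cell markers rose for 4 of 8 in skin and 0 of 7 in small intestine, endothelial markers for 3 of 10 and 1 of 10, dendritic cell markers for 1 of 8 and 2 of 8, T and NK cell markers for 0 of 8 and 1 of 8, and B and plasma cell markers for 1 of 4 and 0 of 7. Of the mast cell markers in skin, 0 were called without control replicate 1 or IMQ replicate 5, 1 without IMQ replicate 4 and 2 without control replicate 3 or IMQ replicate 6. Of the endothelial markers in skin, 1 was called without control replicate 1, control replicate 3, IMQ replicate 4 or IMQ replicate 6, and 2 without IMQ replicate 5. The single calls of dendritic cell markers in skin and of T and NK cell markers in small intestine were also lost without some libraries (control replicate 1 or IMQ replicate 5, and control replicate 9 or IMQ replicate 10). Of the dendritic cell markers in small intestine, 1 was called without any one library other than IMQ replicate 10. Where edgeR called 0, the counts at an unadjusted p under 0.05 and in DESeq2 were 0 and 0 for mast cell markers in small intestine, 3 and 3 for T and NK cell markers in skin, and 1 and 1 for B and plasma cell markers in small intestine. Over all genes, an unadjusted p under 0.05 in edgeR was found for 4753 of 20512 in skin and 2452 of 19965 in small intestine. DESeq2 called 14.8% and 6.04%. The sum of the endothelial markers went from 81.4 to 102 FPKM in control skin to 131 to 203 FPKM after IMQ, and from 49.6 to 82.6 FPKM to 109 to 120 FPKM in small intestine, beside the small fold changes of Cd300lg. Eosinophil markers summed to no more than 3.66 FPKM in any library, with Prg3 at 0 in 10 of 11 libraries, and 0 of 2 in skin and 0 of 4 in small intestine were called in edgeR, 0 and 0 had an unadjusted p under 0.05, and DESeq2 called 0 and 0. Their sums were 1.07 to 1.93 FPKM in control skin and 1.97 to 3.66 FPKM in treated skin. Ear1 lacked a count in a control library and was not in the fit of skin. In the 3 alternatives that fitted Ear1 in skin it was called in 3, with log2 fold changes of 3.85 to 4.36. Epx, Prg2, Prg3 and Il5ra were called in 0 of the alternatives that fitted them in skin.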

How the data were processed

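Libraries of mRNA from skin and small intestine were made with a stranded kit and sequenced. Per the labels and methods, the authors trimmed reads with Trimmomatic, aligned them to mm10 with HISAT2 2.1.0, and estimated abundance with StringTie 2.1.3b. The deposited table holds, for 45777 genes and 11 libraries, a raw read count, an FPKM (scaled for depth and transcript length by the authors) and a TPM. The deposited TPM values were not used here, and neither were the authors' fold changes and p-values. How strand and multiply mapped reads were counted is not given in the sources used here.

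The members and gene lists were chosen with earlier results of these data known. Counts were scaled by relative log expression, a gene entered a fit if each of its libraries held at least 1 read of it, and edgeR 4.0.16 (quasi-likelihood test, R 4.3.3) was fitted on the whole table with Benjamini-Hochberg adjustment and a threshold of 0.05. The fit was tested on simulated data. Library totals were 44995414 to 58526384 counts, and replicates of a group differed by more than sampling noise. Levels between genes were compared only in FPKM. Named genes were all 8 members, the other Cd300 genes, of each list the called genes with the largest and smallest log2 fold change, Tyrobp, Hcst, Fcer1g, Ptpn6, Inpp5d, Trem1, Havcr1 and Timd4, and the 2 nearest profiles of each member; Rab37, Dok1 and Msr1 stand beside them where a result touches them. Alternatives were TMM scaling, DESeq2 1.42.0, limma 3.58.1 (voom, and log2(FPKM + 0.01) or log2(FPKM + 1)), other filters on low counts, one fit of all 11 libraries and each library left out. A nearest profile of Cd300lg and a partner gene that differed between the tissues are not reported here. Promoters came from RefSeq on GRCm38.p6.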

Additional observations from a re-analysis of the deposited data

Results flagged for a closer look

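Among the listed partner genes reported here, the response to IMQ differed between the tissues for 5, by the interaction term in edgeR over all 11 libraries, and was larger in small intestine for each of them. Sirpa, the receptor for CD47, had a log2 fold change of 0.90 in skin and 2.54 in small intestine, and the difference was 1.64 (SE 0.16, adjusted p = 0.000952 in edgeR), which passed in 19 of 19 settings. Fcer1g, the adaptor of several CD300 receptors, differed by 1.51 (SE 0.29, adjusted p = 0.0222 in edgeR), and the kinase gene Syk by 1.19 (SE 0.21, adjusted p = 0.0168 in edgeR), in 13 and 16 of 19 settings. Mertk, a receptor for apoptotic cells, differed by 0.93 (SE 0.17, adjusted p = 0.0184 in edgeR) in 12 of 19 settings, from -0.36 in skin and 0.57 in small intestine, neither of which passed by itself. Lilrb4a differed by 1.62 (SE 0.35, adjusted p = 0.0386 in edgeR) in 7 of 19 settings.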

How the results depend on the processing

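The 5 members called in skin and the 5 called in small intestine numbered 5 or 6 under each other tool, scaling and filter, and 6 only where a looser filter let Cd300e into the fit of skin. With 1 library left out, 3 to 5 members were called in skin and 5 in small intestine, 4 to 5 between the control tissues and 0 for the interaction. With all libraries, DESeq2 called 1 member for the interaction, beside 7.07% of all genes. Of the partner genes, with 1 library left out, 18 to 33 were called in skin (31 with all libraries, 19 without control replicate 1, 18 without IMQ replicate 5 and 20 without IMQ replicate 6) and 20 to 33 in small intestine (32 with all libraries, 20 without IMQ replicate 10). With all libraries, DESeq2 called as many or more of each partner list than edgeR in both tissues. On the FPKM scale, the difference of control skin minus control small intestine turned positive for Cd300a, at 0.015 with a pseudocount of 0.01 and 0.017 with 1, and for Cd300c2, at 0.19 and 0.15, while the median of all genes moved from 0.00 to 0.45 and 0.23. Over all genes, DESeq2 called 3030 in skin and 1206 in small intestine, where edgeR called 1382 and 588. Without control skin replicate 2, the library with intestinal transcripts, edgeR called 2521 in skin. No paired analysis was possible because the replicate numbers run from 1 to 11 and no number is shared between groups. Small groups, 2 treated libraries of small intestine among them, and near-absent Cd300c and control Cd300e limit the precision.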
